A study of Mus musculus with 12 samples.

Results

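The extracellular matrix genes described here are a list of 31 genes for secreted proteins of the fibroblast matrix: collagens, fibronectin, elastic fibre proteins, lysyl oxidases, small proteoglycans, fibulins and matricellular proteins. Every probe whose accession mapped to one of them was taken, and the probe with the highest mean level stood for its gene. Of the 31 listed genes 30 were found, through 44 probes, and 11 genes had several probes. Lox was not analysed here. All 30 genes were well above background on all 12 arrays, so all 30 passed the filter on dim features and entered the tests with 18430 features in all, 12802 of them named genes.

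The samples were RNA from mouse embryonic fibroblasts in 4 groups of 3: Atm-WT cells without irradiation, Atm-WT cells irradiated at 4.32 Gy, Atm-KO cells without irradiation and Atm-KO cells irradiated at 4.32 Gy. Atm is a protein kinase activated by breaks in both DNA strands, and both Atm-KO groups carry its knockout. The label text gives 72 h between irradiation and harvest. The strain, the knockout allele, the embryonic age, the passage, the kind of radiation and whether the 3 samples of a group came from separate embryos or cultures are not given in the sources used here, so a p-value here weighs a difference against the spread of these samples, which may be technical. Levels are log2 spot signal minus the array's own 75th percentile, so a level of 0 is the 75th percentile of that array and a difference of 1 is a doubling. Levels of different genes come from different probes and are not set against each other.

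As background, fibroblasts secrete collagens as procollagens that are trimmed and assembled outside the cell, and lysyl oxidases cross-link collagen and elastin. Elastin is deposited on microfibrils of fibrillin and microfibril-associated proteins, with fibulins as linkers. Matricellular proteins such as the thrombospondins, tenascin-C, periostin, Sparc, osteopontin (Spp1) and the Ccn proteins Ctgf (Ccn2) and Cyr61 (Ccn1) bind matrix and cell receptors and tune adhesion more than they bear load, and Ctgf and Cyr61 are textbook targets of Yap acting through Tead factors.

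The upstream sequences of 3 genes are shown because these genes carry the patterns described below: Cyr61 varied most between samples of one group, while Spp1 and Tnc were higher after irradiation in every pair of samples. Each run is the 250 bases before an annotated start, 5′ to 3′ on the strand of the gene, from RefSeq on GRCm38.p6. Capitals mark matches on either strand to GGAATG (the core of the Tead motif), TGTGGT (the core of the Runx motif) and TATAAA (the TATA box).
Cyr61 (chr3:145649986-145650235, minus strand): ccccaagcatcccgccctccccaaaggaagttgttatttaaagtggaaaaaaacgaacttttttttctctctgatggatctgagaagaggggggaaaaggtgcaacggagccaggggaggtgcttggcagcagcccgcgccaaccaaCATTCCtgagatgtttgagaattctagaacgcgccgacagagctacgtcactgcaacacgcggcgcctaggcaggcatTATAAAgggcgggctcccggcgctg
Spp1 (chr5:104434861-104435110, plus strand): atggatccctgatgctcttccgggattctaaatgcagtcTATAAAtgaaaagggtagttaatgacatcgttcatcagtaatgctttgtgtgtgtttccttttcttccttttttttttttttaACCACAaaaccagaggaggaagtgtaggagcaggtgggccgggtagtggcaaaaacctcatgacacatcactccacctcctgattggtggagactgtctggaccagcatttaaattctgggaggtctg
Tnc (chr4:64046937-64047186, minus strand): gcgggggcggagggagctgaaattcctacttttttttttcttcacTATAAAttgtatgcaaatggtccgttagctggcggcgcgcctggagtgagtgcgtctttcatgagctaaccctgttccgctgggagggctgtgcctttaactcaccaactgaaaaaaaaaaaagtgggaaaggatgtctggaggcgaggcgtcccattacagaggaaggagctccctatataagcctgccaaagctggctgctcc
The Cyr61 window held a Tead core match that began 103 bases before the start and a TATA match 25 bases before it. The Spp1 window held a Runx core match 128 bases before the start and a TATA match 211 bases before it, and the Tnc window held a TATA match 205 bases before the start. Of the matrix genes 18 had an entry in the promoter table, with 24 starts. The Tead core was found in 3 of the 18 (Cyr61, Col3a1 and Col6a2), the Runx core in 1 (Spp1) and the TATA letters in 6. Among 32851 promoter windows of the same length, 12.6% held the Tead core, 14.0% the Runx core and 12.4% the TATA letters. These are shares of single windows, while a matrix gene was counted if any of its starts held a match. The window of the other Spp1 start held no match. The matches are descriptions of letters and not of binding.

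The 75th percentile of the processed signal ranged from 379 to 757 over the 12 arrays, 56.0% to 65.0% of spots were well above background, and no spot was saturated. The Atm probe was well above background on 2 of 3 nonirradiated and 3 of 3 irradiated Atm-WT arrays, and on 0 of 3 and 1 of 3 Atm-KO arrays. Without irradiation its mean level was -4.48 in Atm-WT and -6.21 in Atm-KO cells, where it was not well above background. The lowest signals well above background on those Atm-KO arrays had a mean of -5.45, and the Atm-WT mean was 1.96-fold above that. Atm-WT sample 2, at -5.65 and itself not well above background, lay below it. The measured difference of the means had an adjusted p of 0.476 in limma. After irradiation the means were -4.02 and -6.55 (adjusted p = 0.225). Where on the transcript the probe lies relative to the knockout allele was not analysed here. The 10 fibroblast markers were well above background on every array. The 12 arrays lay on 3 slides: slide 1 held Atm-WT samples 1 and 2, slide 2 held Atm-WT sample 3 and Atm-KO sample 1, and slide 3 held Atm-KO samples 2 and 3. Each nonirradiated sample had its same-numbered irradiated sample on the same slide. The nonirradiated samples were at places 1 and 3 and the irradiated samples at places 2 and 4 of every slide, and place and irradiation cannot be told apart. Both genotypes shared only slide 2, which sets Atm-KO sample 1 against Atm-WT sample 3, so in all values within slide 2 genotype and sample number cannot be told apart.

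The clearest structure among the matrix genes was between samples with different numbers. In 16 of 30 genes (53.3%) sample 1 was the lowest of its group in all 4 groups, against 18.02% of all features tested. No matrix gene had sample 1 highest in all 4, against 2288 of 18430 features. The median over the 30 genes of sample 1 minus the mean of samples 2 and 3, averaged over the groups, was -0.52, against -0.17 over all features. These shares are descriptions of libraries that were singled out after their values were seen. In the plot of sample 1 against samples 2 and 3, most genes lie left of 0 in all 4 groups.

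**Figure D1:**
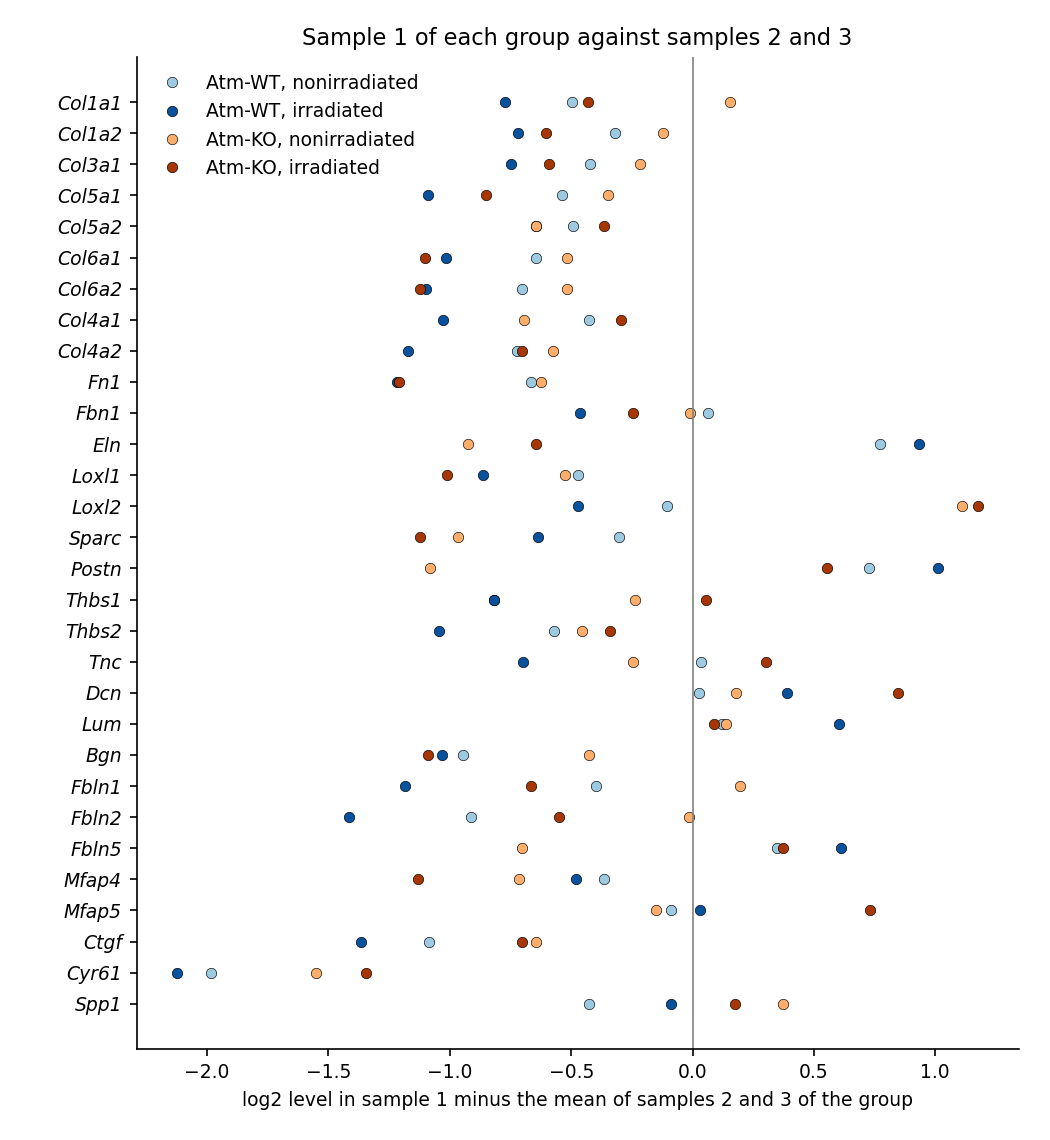
Level of each matrix gene in sample 1 minus the mean of samples 2 and 3 of the same group (x axis, log2), with a point for each of the 4 groups. Cyr61 lies farthest left, between -2.13 and -1.35, while Dcn and Lum lie right of 0 in all 4 groups.

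Cyr61, a secreted adhesive signalling protein, showed the widest gap. In nonirradiated Atm-WT cells its levels were 4.25, 6.33 and 6.14 in samples 1 to 3, and in irradiated Atm-WT cells 4.28, 6.49 and 6.33. In Atm-KO cells they were 4.74, 6.17 and 6.41 in the nonirradiated and 4.89, 6.27 and 6.20 in the irradiated samples. Sample 1 was the low sample each time, and samples 2 and 3 of the 4 groups lay within 6.14 to 6.49, so neither irradiation nor genotype separated the groups. Its SD pooled over the groups was 1.03 with all samples and 0.122 between samples 2 and 3.

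The other genes with a low sample 1 spanned several roles. Ctgf, the other Ccn protein, had a mean difference of sample 1 from the others of -0.95. The same difference was -0.93 for Fn1, which encodes fibronectin for cell attachment, -0.87 for Bgn, the proteoglycan biglycan, and -0.86 and -0.82 for the collagen VI chains Col6a2 and Col6a1. In 8 of 30 genes this mean difference was above 0: Loxl2 at 0.43, Dcn at 0.36, Postn at 0.30, Lum at 0.24, Fbln5 at 0.16, Mfap5 at 0.13, Eln at 0.03 and Spp1 at 0.01. Of these 8, only 2 were above 0 in each of the 4 groups, Dcn and Lum, the small leucine-rich proteoglycans decorin and lumican. Over the 30 genes the pooled SD within groups ranged from 0.21 to 1.03 with a median of 0.445, and between samples 2 and 3 alone it had a median of 0.209. Other measures also differed between sample numbers, though not alike in every group. In nonirradiated Atm-WT cells the 75th percentile was 608 in sample 1 against 379 and 438 in samples 2 and 3. It was 757 against 447 and 432 in irradiated Atm-WT cells. In Atm-KO cells it was 430 against 460 and 490 without irradiation and 708 against 513 and 512 with it. The 12 cycling-cell markers had a median of 0.26 for the same difference. Of them 4 of 12 were highest in sample 1 in all 4 groups, against 2288 of 18430 features. The summed linear level of the 10 fibroblast markers, relative to the 75th percentile, was 605 in sample 1 against 1211 and 1148 in nonirradiated Atm-WT cells, but 962 against 917 and 920 in nonirradiated Atm-KO cells. Their part in the matrix pattern was not tested. The heat map of the matrix genes shows the low first column of each group.

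**Figure D2:**
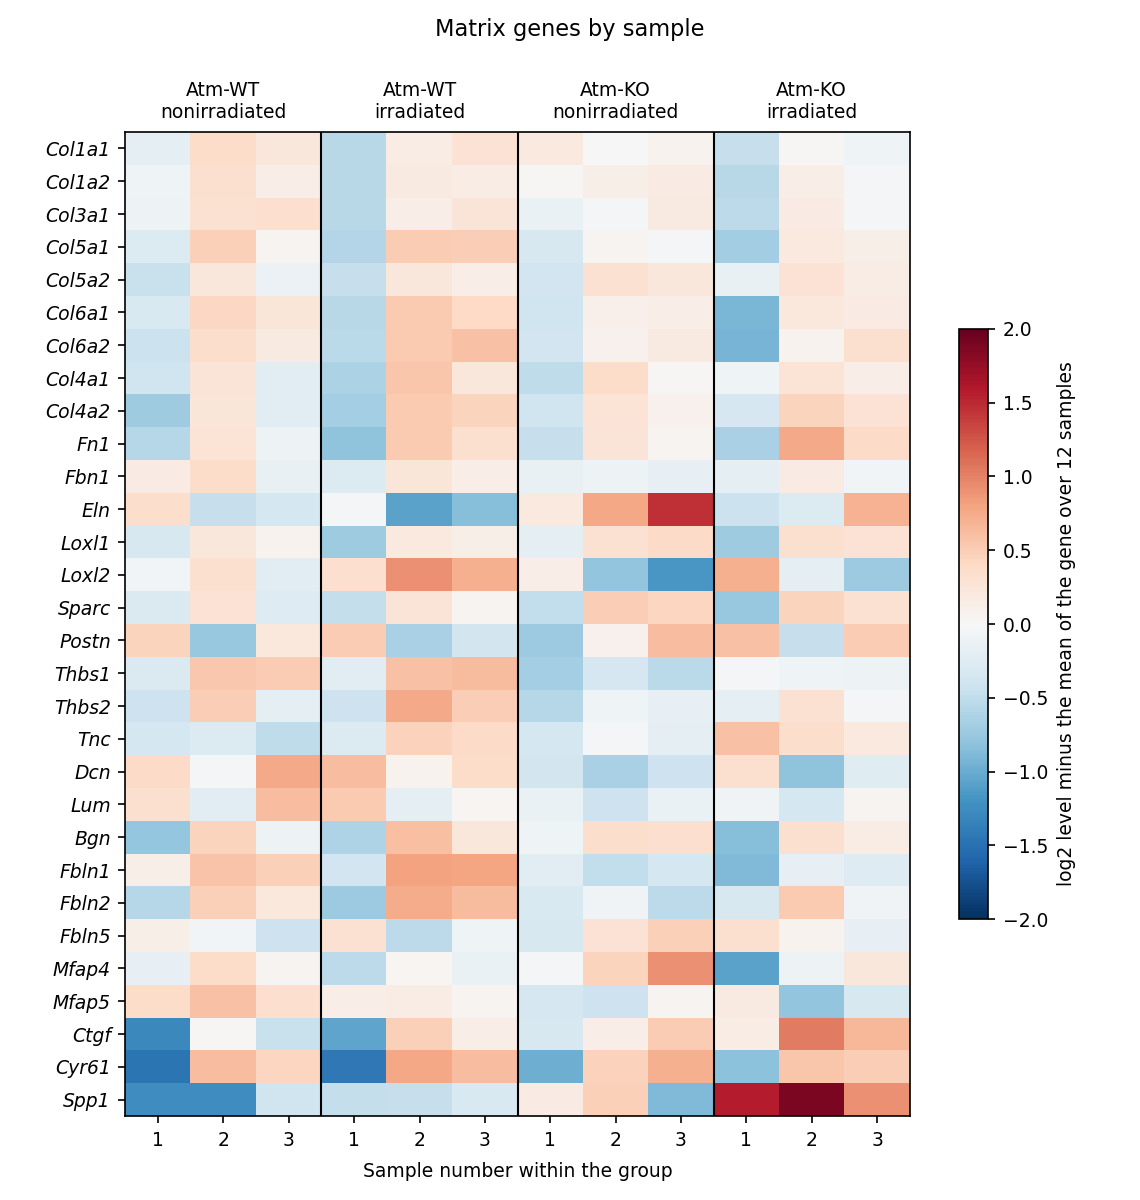
Levels of the 30 matrix genes (rows) in the 12 samples (columns, by group and sample number), each as the log2 level minus the mean of the gene over the 12 samples; red is higher and blue lower. The first column of each group is blue for most collagens, Fn1 and Cyr61, and for Ctgf it is blue except in irradiated Atm-KO cells. The Spp1 row is reddest in irradiated Atm-KO cells.

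Irradiation was compared with no irradiation in each genotype, with limma on all features and Benjamini-Hochberg adjustment over all 18430. No matrix gene passed an adjusted p of 0.05 in Atm-WT cells, where 0.445% of all features were called, and none in Atm-KO cells, where 0.00543% were called. At an unadjusted p under 0.05 there were 1 and 2 of 30 genes, against 6.46% and 7.93% of all features. The median difference of the 30 genes was 0.04 in Atm-WT and 0.03 in Atm-KO cells, against -0.02 and -0.05 for all features, and 27 and 24 of 30 genes lay within 0.5 of 0. The SE of a gene's difference had a median of 0.351. Irradiated and nonirradiated samples did not overlap in 3 of 30 genes in Atm-WT cells (10.2% of all features) and in 3 of 30 in Atm-KO cells (17.1% of all features), which are shares near the background. The plot of irradiation differences shows most genes close to 0 in both genotypes.

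**Figure D3:**
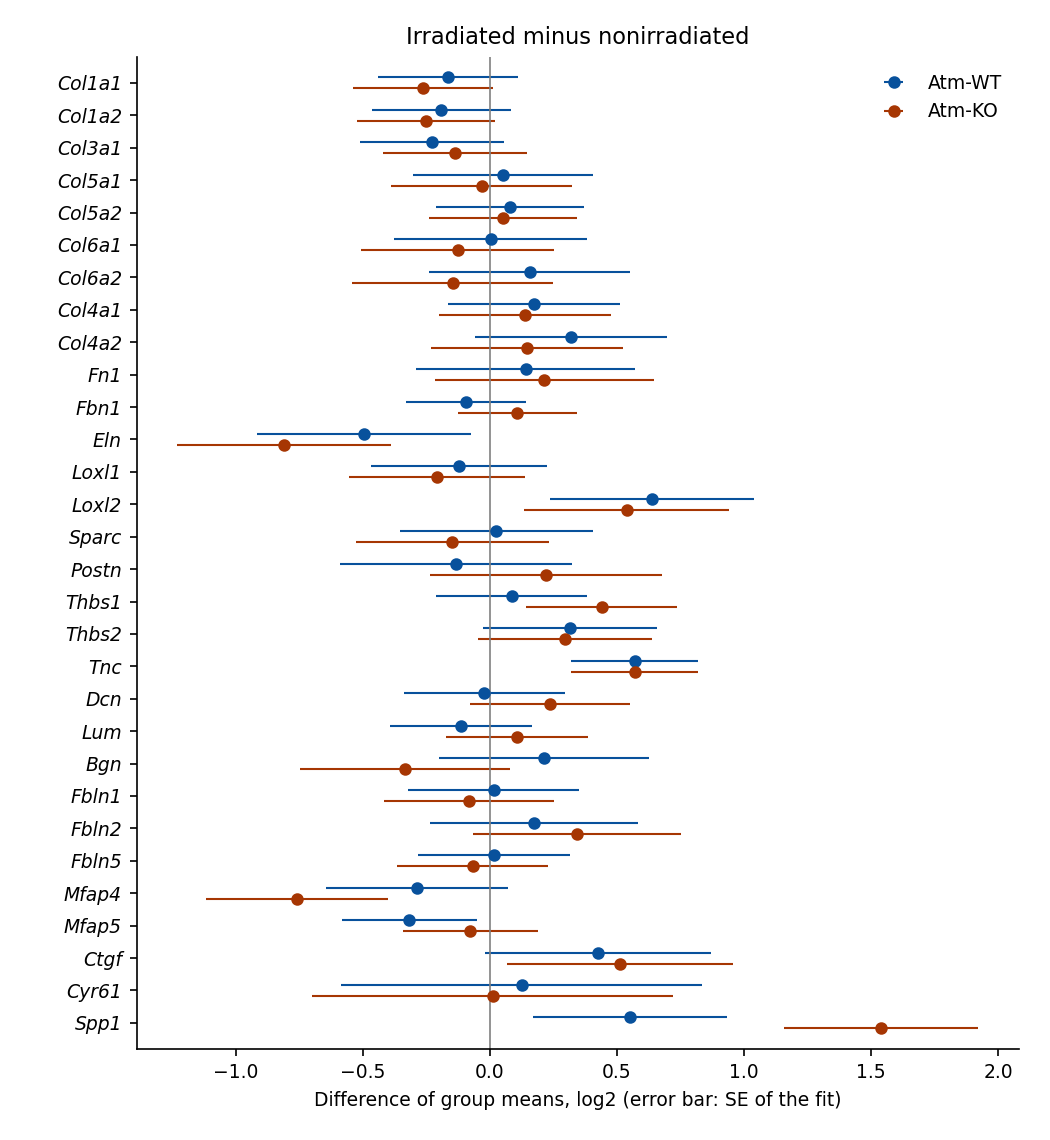
Irradiated minus nonirradiated mean of each matrix gene on the log2 scale (x axis) in Atm-WT and Atm-KO cells, 3 arrays a group; points are differences and bars the SE of the fit. Spp1 in Atm-KO cells lies farthest right at 1.54, and Eln lies farthest left in both genotypes at -0.49 and -0.81.

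Same-numbered samples of a genotype deviated together, so the difference within each of the 6 pairs could be read as well. For number 2 in Atm-KO cells, though, the correlation was 0.269, against 0.335 with a differently numbered sample. In 6 of 30 genes the irradiated sample was higher in all 6 pairs (7.83% of all features), and these were Spp1, Loxl2, Tnc, Ctgf, Thbs1 and Col4a2. In 2 of 30 genes, Eln and Mfap4, it was lower in all 6 pairs (14.3% of all features). Together that is 8 of 30 genes. With the pair as a term in the model the median SE was 0.197. That fit called 1 gene, Spp1 in Atm-KO cells, where 2.05% of all features were called, and none in Atm-WT cells, where 2.26% were called. At an unadjusted p under 0.05 the paired fit had 4 of 30 genes in Atm-WT cells and 7 of 30 in Atm-KO cells, against 15.4% and 20.6% of all features.

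Spp1 encodes osteopontin, a secreted glycoprotein that binds integrins and Cd44 and is made by osteoblasts and macrophages as well as by activated fibroblasts. Its levels were 4.88, 4.88 and 5.72 in nonirradiated and 5.65, 5.66 and 5.82 in irradiated Atm-WT cells. In Atm-KO cells they were 6.29, 6.61 and 5.24 in the nonirradiated and 7.70, 8.01 and 7.04 in the irradiated samples. All 3 irradiated Atm-KO samples lay above the other 9 samples, while the Atm-WT groups overlapped through sample 3.

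In Atm-KO cells Spp1 was 2.91-fold higher after irradiation, a log2 difference of 1.54 ± 0.383 (SE; 95% interval 0.71 to 2.37; adjusted p = 0.242 in limma). The pairs differed by 1.41, 1.40 and 1.80, and with the pair in the model the SE was 0.205 and the adjusted p 0.0154, so the call rests on the pairing. Without the 4 samples numbered 1 the difference was 1.60 and no matrix gene was called in Atm-KO cells, with or without the pair in the model. In Atm-WT cells the difference was 0.55 ± 0.383 (adjusted p = 0.99997), with pairs at 0.78, 0.78 and 0.10. The irradiation effect of Spp1 in Atm-KO cells exceeded that in Atm-WT cells by 0.99 ± 0.541 (adjusted p = 0.99992), and with pairs in the model by 0.99 ± 0.289 (unadjusted p = 0.00767, adjusted p = 0.977), so a difference between genotypes was not shown. The level plots show the 3 irradiated Atm-KO samples of Spp1 at the top of their panel.

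**Figure D4:**
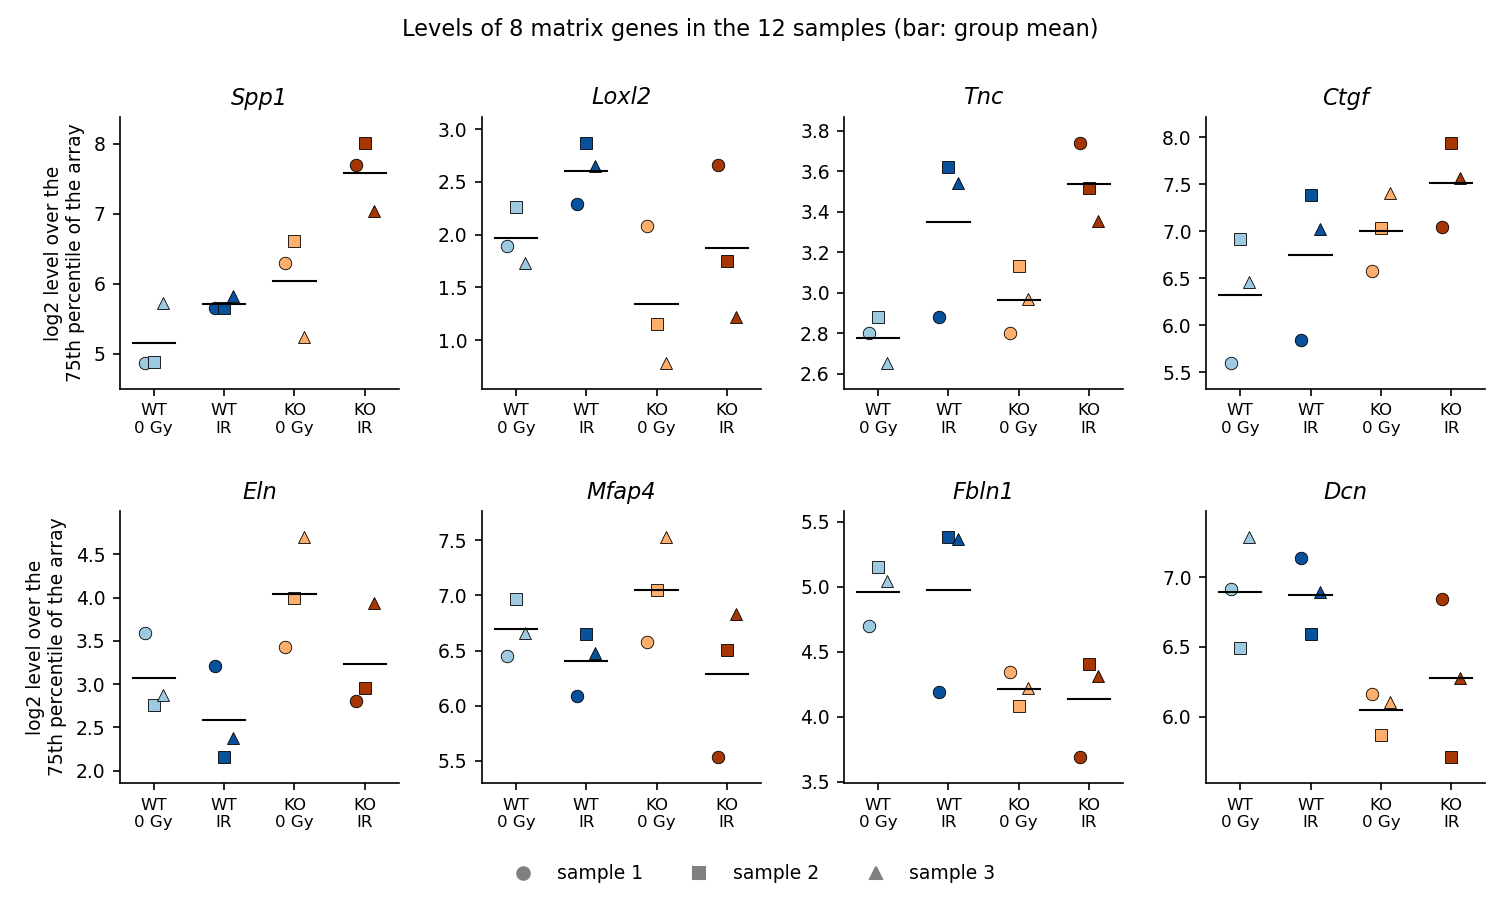
Levels of 8 matrix genes in the 12 samples (y axis, log2 level relative to the 75th percentile of the array) by group (x axis), with marker shape giving the sample number and bars the group means. Spp1 is highest in irradiated Atm-KO cells (7.04 to 8.01), and the Loxl2, Tnc, Ctgf, Eln and Mfap4 panels show all 6 irradiated samples on one side of their same-numbered nonirradiated partners.

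Markers of 2 other cell types that make osteopontin also differed between the groups. Bglap, the osteoblast hormone osteocalcin, was higher after irradiation in Atm-WT cells by 1.504 ± 0.268 (adjusted p = 0.0294) and in Atm-KO cells by 1.09 ± 0.268 (adjusted p = 0.235). Of the 7 osteoblast markers 5 were tested. After irradiation 2 were higher and 3 lower in Atm-WT cells (median -0.11), where Bglap was the only 1 called, and 4 were higher and 1 lower in Atm-KO cells (median 0.35), where none was called. The summed level of the 7 ranged from 1.72 to 1.94 in nonirradiated Atm-WT, 1.13 to 1.86 in irradiated Atm-WT, 1.48 to 4.19 in nonirradiated Atm-KO and 1.46 to 4.27 in irradiated Atm-KO cells. The osteoblast factor Sp7 was well above background on 1, 0, 2 and 2 arrays of these groups. The 11 macrophage and blood cell markers on the array summed to 3.78 to 6.61 and 2.83 to 4.497 in Atm-WT cells without and with irradiation, and to 0.554 to 0.904 and 0.654 to 0.802 in Atm-KO cells, the groups in which Spp1 was higher. Ptprc, the pan-leukocyte marker, was well above background on 1 array of each Atm-WT group and on none of the Atm-KO groups. The macrophage markers differed from Ptprc in this respect. Csf1r reached that limit on 3 of 3 arrays in each group, both Atm-KO groups included. Adgre1 reached it on 3 of 3 arrays in each Atm-WT group. In Atm-KO cells Adgre1 reached it on 0 of 3 nonirradiated and 1 of 3 irradiated arrays. The part of either cell type in the Spp1 levels was not tested.

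Among the matricellular genes, Tnc, the large hexameric protein tenascin-C, had levels of 2.80, 2.88 and 2.66 in nonirradiated and 2.88, 3.62 and 3.54 in irradiated Atm-WT cells. In Atm-KO cells they were 2.80, 3.13 and 2.97 in the nonirradiated and 3.74, 3.52 and 3.36 in the irradiated samples. The groups did not overlap in either genotype, and the difference was 0.57 ± 0.250 in both (adjusted p = 0.734 in Atm-WT and 0.600 in Atm-KO cells). Sample 1 gave the smallest pair difference in Atm-WT cells, 0.08, and the largest in Atm-KO cells, 0.94. A second, dimmer Tnc probe gave 0.78 and 0.76.

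Thbs1, the thrombospondin that activates latent TGF-beta, showed differences of 0.09 ± 0.297 in Atm-WT and 0.44 ± 0.297 in Atm-KO cells (adjusted p = 0.99997 and 0.814). Its Atm-KO levels were 3.69, 4.03 and 3.83 without and 4.33, 4.28 and 4.26 with irradiation and did not overlap. Its 2 dimmer probes gave 0.59 and 0.56 in Atm-WT cells, so the probes of this gene disagreed in size, and the Atm-WT value of the brightest probe changed sign under some alternatives (range -0.19 to 0.41). Thbs2, its close relative, was at 0.31 ± 0.342 and 0.30 ± 0.342, and 1 of its 6 pairs was just below 0. Sparc, a collagen-binding glycoprotein, was at 0.03 and -0.15, and Postn, or periostin, at -0.13 and 0.22 with pair differences from -0.57 to 1.31.

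Ctgf levels were 5.60, 6.92 and 6.46 in nonirradiated and 5.84, 7.38 and 7.02 in irradiated Atm-WT cells, and 6.57, 7.03 and 7.41 against 7.05, 7.94 and 7.56 in Atm-KO cells. The groups overlapped because of the low sample 1, although all 6 pairs were higher after irradiation, by 0.16 to 0.90. The differences were 0.42 ± 0.445 and 0.51 ± 0.445 (adjusted p = 0.99997 and 0.864). Cyr61, in contrast, was at 0.13 ± 0.710 and 0.01 ± 0.710, and with the pair in the model its SE was 0.173, so its interval there was far narrower than the spread between samples.

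Of the cross-linking enzymes, Loxl2, a lysyl oxidase-like protein that acts on collagen IV, had levels of 1.90, 2.26 and 1.73 in nonirradiated and 2.29, 2.87 and 2.65 in irradiated Atm-WT cells, with no overlap. In Atm-KO cells they were 2.08, 1.15 and 0.79 against 2.66, 1.75 and 1.22, where the spread between samples was wider than the shift. The differences were 0.64 ± 0.402 and 0.54 ± 0.402 (adjusted p = 0.99997 and 0.835), and the 6 pairs lay between 0.39 and 0.92. Loxl1, which acts on elastin, was at -0.12 ± 0.347 and -0.21 ± 0.347.

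Of the elastic fibre genes, Eln and Mfap4 were the pair with a lower value in every irradiated sample than in its same-numbered partner. Eln, which encodes elastin, had levels of 3.59, 2.76 and 2.87 against 3.20, 2.16 and 2.38 after irradiation in Atm-WT cells, and 3.42, 3.999 and 4.69 against 2.80, 2.95 and 3.93 in Atm-KO cells. Its pair differences were -1.05 to -0.39, while the groups overlapped. The differences were -0.49 ± 0.421 and -0.81 ± 0.421 (adjusted p = 0.99997 and 0.696), and with the pair in the model the adjusted p was 0.214 and 0.0545. Mfap4, a microfibril-associated protein that binds elastin, was at -0.29 ± 0.357 and -0.76 ± 0.357, with all 6 pairs between -1.04 and -0.18 (adjusted p = 0.99997 and 0.644, and with the pair 0.537 and 0.0684). Its Atm-WT difference changed sign to 0.06 with normexp background correction. Mfap5, a second microfibril protein, was at -0.32 ± 0.265 in Atm-WT cells, with no overlap, and at -0.08 ± 0.265 in Atm-KO cells. Fbn1, the fibrillin that forms the microfibril, was at -0.09 and 0.11, and the fibulins Fbln1, Fbln2 and Fbln5 were at 0.01, 0.17 and 0.02 in Atm-WT and -0.08, 0.34 and -0.07 in Atm-KO cells. Fbln5 was the 1 matrix gene below the 75th percentile on the arrays, at -4.27 to -3.27.

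The collagens had small differences. For the fibrillar chains Col1a1, Col1a2 and Col3a1 the differences were -0.17, -0.19 and -0.23 in Atm-WT and -0.26, -0.25 and -0.14 in Atm-KO cells, with SE from 0.273 to 0.283. Quantile normalization turned all 6 positive, to 0.09, 0.11 and 0.03 in Atm-WT and 0.09, 0.16 and 0.21 in Atm-KO cells, so no direction is given for these chains. Col1a1 levels were 7.83, 8.40 and 8.26 against 7.48, 8.18 and 8.32 in Atm-WT cells, and 8.22, 8.04 and 8.10 against 7.57, 8.05 and 7.95 in Atm-KO cells. The groups overlapped in both genotypes. Its 95% intervals ran from -0.77 to 0.43 and from -0.86 to 0.34 on the log2 scale. Col5a1 and Col5a2, chains of the collagen that nucleates fibrils, were at 0.05 and 0.08 in Atm-WT and -0.03 and 0.05 in Atm-KO cells, and the beaded-filament chains Col6a1 and Col6a2 were at 0.00 and 0.16, and -0.13 and -0.15. The basement membrane chains Col4a1 and Col4a2, which are transcribed in opposite directions from a shared promoter region, were at 0.17 and 0.32 in Atm-WT and 0.14 and 0.15 in Atm-KO cells, with SE of 0.339 and 0.378. Fn1 was at 0.14 ± 0.429 and 0.21 ± 0.429, and the proteoglycans Dcn and Lum were at -0.02 and -0.11, and 0.24 and 0.11.

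The genotype comparison asked how Atm-KO cells differed from Atm-WT cells at the same dose. No matrix gene was called by limma, where 0.857% of all features were called without irradiation and 0.206% after it. At an unadjusted p under 0.05 there were 6 and 2 of 30 genes, against 7.52% and 5.23% of all features. The median difference of Atm-KO minus Atm-WT was 0.00 without and -0.08 after irradiation, against 0.04 and -0.01 for all features. The groups did not overlap in 4 of 30 genes without irradiation (13.7% of all features) and in 1 of 30 after it (6.85%). With the sample number in the model, after irradiation 0.76% of all features were called and no matrix gene was. Genotype and slide largely coincided, and within slide 2, with 1 sample of each genotype, they could be compared only as single values.

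**Figure D5:**
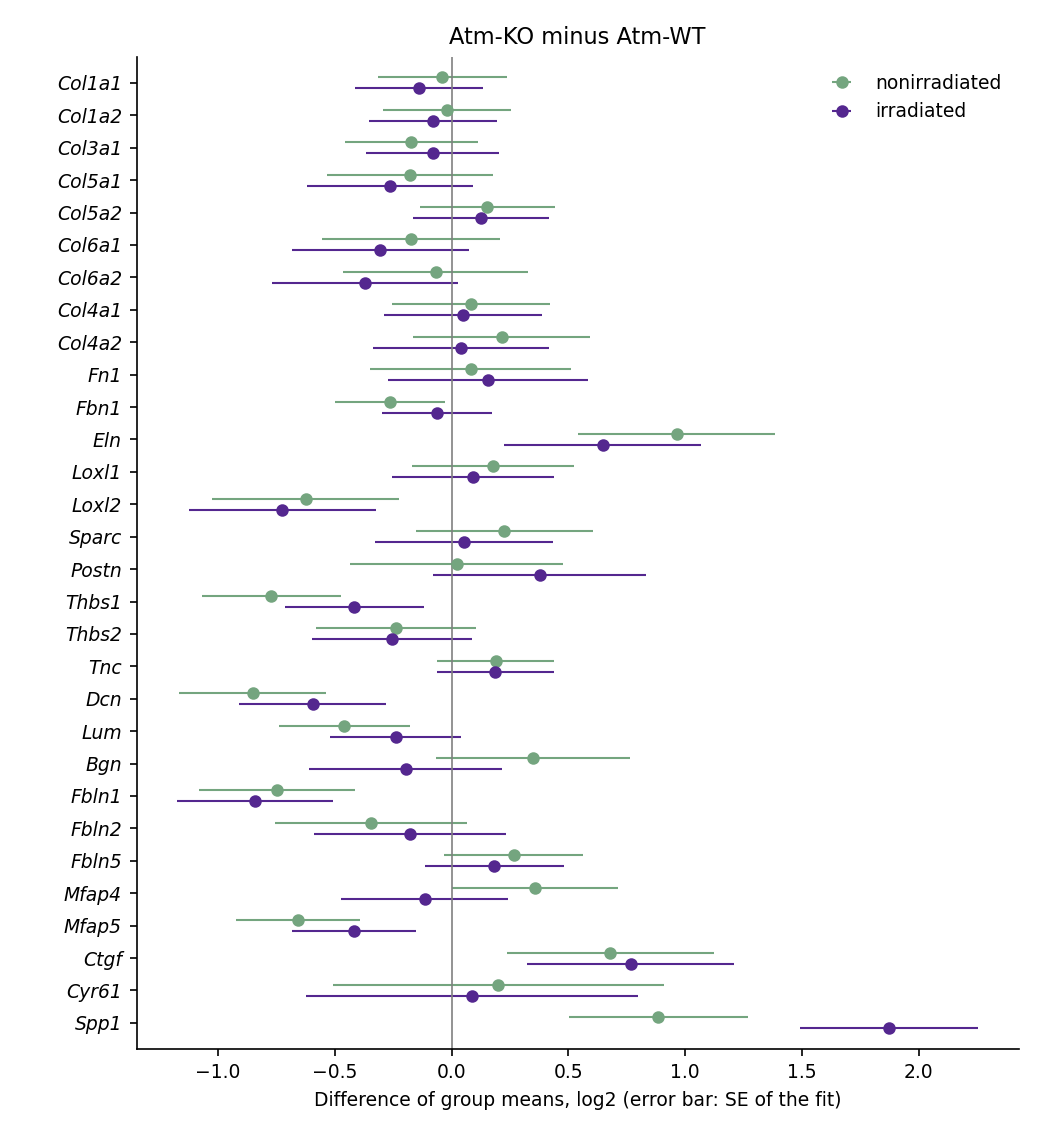
Atm-KO minus Atm-WT mean of each matrix gene on the log2 scale (x axis) without and with irradiation, 3 arrays a group; points are differences and bars the SE of the fit. Spp1, Eln and Ctgf lie to the right at both doses, and Fbln1, Dcn, Thbs1, Loxl2 and Mfap5 to the left.

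Genes with lower values in Atm-KO cells at both doses included a fibulin, a proteoglycan and a thrombospondin. Fbln1, the fibulin-1 gene, was at 4.70, 5.15 and 5.04 in nonirradiated Atm-WT and 4.35, 4.08 and 4.22 in nonirradiated Atm-KO cells, without overlap. After irradiation the levels were 4.19, 5.38 and 5.37 against 3.69, 4.40 and 4.31, where the low sample 1 of the Atm-WT group made them overlap. The differences were -0.75 ± 0.335 and -0.84 ± 0.335 (adjusted p = 0.639 and 0.743), and within slide 2 they were -0.70 and -1.67. Its SD between samples 2 and 3 was 0.0714.

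Dcn was at 6.91, 6.49 and 7.28 in nonirradiated Atm-WT and 6.16, 5.87 and 6.10 in nonirradiated Atm-KO cells, again without overlap. After irradiation it was at 7.14, 6.59 and 6.90 against 6.85, 5.71 and 6.28, with overlap. The differences were -0.85 ± 0.315 and -0.59 ± 0.315 (adjusted p = 0.451 and 0.99993), and -1.12 and -0.05 within slide 2. Lum, a proteoglycan of the same family, was at -0.46 ± 0.280 and -0.24 ± 0.280.

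Thbs1 was at 4.08, 4.91 and 4.87 in nonirradiated Atm-WT and 3.69, 4.03 and 3.83 in nonirradiated Atm-KO cells, without overlap. The difference was -0.77 ± 0.297 without and -0.42 ± 0.297 after irradiation (adjusted p = 0.482 and 0.99993), and -1.18 and -0.68 within slide 2. Its dimmer probes gave -0.18 and -0.02 without irradiation, and after it the 3 probes ranged from -0.42 to 0.13 and so differed in sign. Mfap5 was at -0.66 ± 0.265 and -0.42 ± 0.265, with no overlap without irradiation.

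Loxl2 was at -0.62 ± 0.402 and -0.72 ± 0.402 (adjusted p = 0.933 and 0.99993). Its sample 1 went the other way, with Atm-KO minus Atm-WT of 0.19 and 0.38 against -1.11 and -0.95, and -1.12 and -1.43, in samples 2 and 3. With slide as a fixed term both differences changed sign, to 0.23 and 0.13, and within slide 2 they were 0.35 and 0.01. That fit sets the genotypes against each other only through slide 2, so its values are not separate from those within slide 2.

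Spp1, Eln and Ctgf had higher means in Atm-KO cells at both doses. Spp1 was higher by 0.89 ± 0.383 without irradiation, where sample 3 went the other way at -0.48, and by 1.87 ± 0.383 after it (3.66-fold; adjusted p = 0.0948, or 0.0811 with the sample number in the model). The irradiated samples did not overlap, at 5.65 to 5.82 in Atm-WT and 7.04 to 8.01 in Atm-KO cells, and the difference within slide 2 was 1.88. Bglap was also higher in Atm-KO cells, by 2.05 ± 0.268 and 1.64 ± 0.268 (adjusted p = 0.00273 and 0.0298). Eln was higher by 0.96 ± 0.421 and 0.65 ± 0.421 (adjusted p = 0.617 and 0.99993), but sample 1 went the other way at -0.17 and -0.40. Ctgf was higher by 0.68 ± 0.445 and 0.77 ± 0.445 (adjusted p = 0.941 and 0.99993), in all 3 samples at each dose, and by 0.12 and 0.02 within slide 2.

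The other matrix genes differed less between genotypes. Col1a1, Col1a2, Col3a1, Col5a1 and both collagen VI chains lay between -0.37 and -0.02 at both doses, and Col4a1, Col4a2, Col5a2, Fn1 and Loxl1 between 0.04 and 0.21, all within their SE or close to it. The 6 collagen chains of the first of these sets turned positive without irradiation under normexp background correction, at 0.07 to 0.24. Cyr61 was at 0.20 ± 0.710 and 0.09 ± 0.710. Fbn1 was at -0.26 and -0.06, Fbln2 at -0.35 and -0.18, Fbln5 at 0.27 and 0.18, Sparc at 0.23 and 0.05, Tnc at 0.19 and 0.19, Thbs2 at -0.24 and -0.26, Postn at 0.02 and 0.38, Bgn at 0.35 and -0.20, and Mfap4 at 0.36 and -0.12. The 2 Sparc probes had opposite signs in both genotype comparisons.

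Because sample 1 stood apart, the comparisons were repeated with samples 2 and 3 alone, a choice made after seeing the data. For genotype that called 2 of 30 matrix genes without irradiation, where 8.57% of all features were called: Fbln1 at -0.95 (adjusted p = 0.0104) and Thbs1 at -0.96 (adjusted p = 0.00997). After irradiation it called 3 of 30, where 5.66% of all features were called: Fbln1 at -1.02 (adjusted p = 0.0112), Loxl2 at -1.28 and Thbs1 at -0.71. With the sample number in the model as well, 5 and 3 of 30 were called, where 10.4% and 6.73% of all features were called. Without sample 1 no slide held both genotypes, so genotype and slide cannot be told apart there.

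The difference of the irradiation effect between genotypes was called for no matrix gene, with 0.00543% of all features called, and for none with pairs in the model, with 0.0217% of all features called. The median over the 30 genes was -0.05, against -0.06 for all features. At an unadjusted p under 0.05 there was no matrix gene in the first fit and 1, Spp1, in the second.

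Other lists of matrix-related genes were read in the same way. No gene of the 5 lists was called by limma in any of the comparisons. Of 18 genes of collagen processing and cross-linking, such as the prolyl and lysyl hydroxylases and Serpinh1, 11 were higher and 7 lower after irradiation in Atm-WT cells and 6 higher and 12 lower in Atm-KO cells, where the medians were 0.07 and -0.18. Of 17 matrix receptors tested, integrins, syndecans and Cd44 among them, 14 had positive differences in Atm-WT and 16 in Atm-KO cells; their medians were 0.15 and 0.28 against -0.02 and -0.05 for all features. The 42 other matrix components tested, laminins and further collagens among them, had medians of -0.08 and -0.15, the 20 TGF-beta pathway genes 0.01 and 0.12, and the 15 Yap and Tead pathway genes tested 0.05 and 0.15.

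With pairs in the model a few genes of these lists were called, of which those named here are examples. Of all features, 2.26% were called for irradiation in Atm-WT cells, 2.05% in Atm-KO cells and 0.76% for genotype after irradiation. In Atm-KO cells Ankrd1, a Yap target, was higher by 1.41, the cross-linker Loxl3 by 0.97, and the osteopontin receptors Cd44 and Itga4 by 1.17 and 1.33. Their means also rose after irradiation in Atm-WT cells, without a call. Ankrd1 went from -0.35 to 0.44, Loxl3 from -0.54 to 0.28, Cd44 from 3.14 to 3.80 and Itga4 from -4.48 to -3.31. The Itga4 probe was well above background on only 2 of 3 nonirradiated Atm-KO arrays. Agrn, the basement membrane proteoglycan agrin, was higher in Atm-WT cells by 1.56. Among the genotype comparisons with the sample number in the model, Loxl3 was higher in irradiated Atm-KO cells by 1.17. Vtn, which encodes vitronectin, was called lower there, with levels of -2.14, -3.73 and -3.02 in irradiated Atm-WT and -4.17, -5.63 and -6.16 in irradiated Atm-KO cells, but its probe was well above background on only 1 of those 3 Atm-KO arrays. None of these calls stood in the fit without the pair or number.

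Markers of cycling cells differed with irradiation in size. The 12 of them had medians of -0.84 in Atm-WT and -1.13 in Atm-KO cells after irradiation, and their summed level ranged from 58.8 to 66.0 without and 31.5 to 36.6 with irradiation in Atm-WT cells and from 59.0 to 121.3 and 30.8 to 35.8 in Atm-KO cells. None was called without the pair in the model, and 3 and 6 of 12 were called lower with it, where 2.26% and 2.05% of all features were called in either direction. Contractile markers of myofibroblasts and smooth muscle had medians of 0.24 and 0.03, and none of the 8 was called. The summed fibroblast markers ranged from 605 to 1211 and 526 to 1122 in Atm-WT cells without and with irradiation, and from 917 to 962 and 543 to 1006 in Atm-KO cells. Fewer cells of a type and less RNA per cell cannot be told apart in such bulk samples, and the part of these measures in the matrix values was not tested.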

How the data were processed

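Cy3-labelled RNA of 12 samples was hybridised to single-colour Agilent mouse arrays. The deposited array files give spot intensity, background-subtracted within each array by Feature Extraction 10.7.1.1 per the file headers; the submitters' processing notes name version 11.0. A matrix of log2 values deposited by the authors served as an alternative. Against the scanner values it matched log2 signal over the 75th percentile of the array with the median of each probe removed (r of at least 0.9975 for every array; column medians from -0.427 to 0.27).

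Here control spots were left out, and outlier spots too unless every spot of the probe on that array was flagged as an outlier. Levels were log2 processed signal minus the array's 75th percentile, which was taken over all spots but the controls. Of 41174 probes 25089 were named through unversioned accessions in a RefSeq gene table, giving 17301 genes. The probe with the highest mean stood for a gene, and features entered the test if every array of some group had them well above background. Group means were fitted with limma 3.58.1 (R 4.3.3) over all 4 groups, with Benjamini-Hochberg adjustment at 0.05, and the fit was tested on simulated data. Same-numbered samples deviated together for irradiation in Atm-WT (correlations 0.852, 0.732 and 0.481) and Atm-KO cells (0.510, 0.269 and 0.503) and for genotype after irradiation (0.628, 0.616 and 0.218), but not for genotype without irradiation. For number 2 in Atm-KO cells and number 3 in genotype after irradiation, a differently numbered sample correlated higher, at 0.335 and 0.387. The pairing is thus taken from the data and the shared slide, not from the labels.

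All 31 genes were to be named, and from the other lists genes called in a comparison, at most 3 per list and comparison. The genes and lists were chosen with earlier results of these data known. Alternatives were quantile normalization, normexp background correction, other filters, the mean over probes, the authors' matrix, slide as a fixed or random term, only the groups compared, the replicate block and leaving out arrays. Normexp used the median spot signal. Some results of the other lists are not reported here.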

Additional observations from a re-analysis of the deposited data

Results flagged for a closer look

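Bgn, the proteoglycan biglycan, had pair differences of opposite sign after irradiation in the 2 genotypes. All 3 Atm-WT pairs were higher, by 0.15, 0.15 and 0.33, and all 3 Atm-KO pairs were different in sign, at -0.77, -0.03 and -0.19. The effect in Atm-KO minus that in Atm-WT cells was -0.54 ± 0.585 (SE; adjusted p = 0.99992 in limma) and with pairs in the model -0.54 ± 0.278 (adjusted p = 0.977), so the difference did not pass the test. It ranged from -0.89 to -0.18 over the alternatives. The effect within a genotype changed sign under some of them, ranging from -0.10 to 0.56 in Atm-WT and from -0.56 to 0.03 in Atm-KO cells, where it was -0.33 with all samples and -0.11 without the samples numbered 1.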

How the results depend on the processing

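No matrix gene was called in any comparison under quantile normalization, normexp background correction, either other filter, the mean over probes, the authors' matrix, slide as a term, only the groups compared or without any single array (0 genes in each of 12 such fits). The replicate block called 1 gene for irradiation in Atm-KO cells (Spp1, 1.54) and none in the other comparisons, genotype without irradiation included, where the numbers did not pair the samples. Without the 4 samples numbered 1, a choice made after seeing the data, 2 genes were called for genotype without irradiation and 3 after it, and 5 and 3 with the replicate block as well, where 1909 and 1240 of 18430 features were called. For genotype without irradiation, where the numbers did not pair the samples, that block called Dcn at -0.90 and Eln at 1.53. With slide as a fixed term the median genotype difference moved to -0.39 without and -0.51 after irradiation. That fit sets the genotypes against each other only through slide 2, so genotype and sample number cannot be told apart in it. The 24 differences with an unadjusted p under 0.05 in either fit kept their sign under every alternative. They were picked by that p from these same arrays, so the kept sign is no independent check. Ctgf for genotype without irradiation, for example, fell from 0.68 to 0.03. Scaling changed the sign of 10 of 30 genes for irradiation in Atm-WT and 8 in Atm-KO cells. It changed the sign of 10 and 2 for genotype without and after irradiation and of 16 for the genotype difference of the irradiation effect. Over all alternatives 22, 19, 19, 20 and 26 of 30 changed sign. Normexp moved the median of all features to -0.16 for irradiation in Atm-WT cells and -0.13 for genotype without irradiation. Over all features, calls with the main fit and with the block were 82 and 417 for irradiation in Atm-WT, 1 and 377 in Atm-KO, 158 and 315 for genotype without and 38 and 140 with irradiation. The other alternatives, apart from leaving out samples, called 44 to 139, 0 to 1, 34 to 163 and 3 to 42. Leaving out 1 array called 49 (without irradiated Atm-WT sample 3) to 101, 0 to 2, 57 to 225 and 3 to 104. For genotype without irradiation 57, 74, 88 and 103 were called without nonirradiated Atm-KO samples 2 and 3 and nonirradiated Atm-WT samples 2 and 3. After irradiation 3, 6, 5, 23, 58 and 104 were called without irradiated Atm-WT sample 2, irradiated Atm-KO samples 2 and 3, irradiated Atm-WT sample 3, nonirradiated Atm-KO sample 1 and irradiated Atm-KO sample 1. Without the samples numbered 1, 1580 and 1044 features were called for genotype.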
